A study of Mus musculus with 6 samples.

Results

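The tumour suppressor p53, encoded by Trp53, and 6 genes that regulate its stability or activity were followed in a mouse squamous carcinoma line, SCC7. The members were chosen by symbol (Trp53, Mdm2, Mdm4, Ccng1, Ppm1d, Usp7 and Rchy1), and all 7 were found among the 17030 genes of the deposited table. RNA was sequenced from 3 samples of irradiated SCC7 cells (radiotherapy at 9 Gy) and 3 samples of untreated SCC7 control cells, and every sample is labelled day 0, which does not give the time from irradiation to RNA extraction. Both groups are the same cell line, grown in high glucose medium with 10% serum, and carried no other label of genotype or agent. The labels do not state that replicates were grown separately. The p-values therefore rest on variation among samples that could be purely technical.

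p53 is a transcription factor that is made continuously and destroyed continuously, mainly because MDM2, a ubiquitin ligase, marks it for the proteasome. DNA damage, such as the breaks that ionizing radiation makes, leads to phosphorylation of p53 by the kinases ATM and CHK2, which weakens its contact with MDM2, and p53 protein then accumulates largely without a change in its mRNA. p53 in turn induces Mdm2, Ccng1 and Ppm1d, whose products restrain it, and these are among the negative feedback loops of the pathway. MDM4 is a relative of MDM2 that binds and blocks p53, RCHY1 (PIRH2) is another ubiquitin ligase of p53, and USP7 (HAUSP) is a protease that removes ubiquitin from both p53 and MDM2.

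The promoter sequences of the members are shown first, because Mdm2 and Ccng1 were the members that passed the test and p53 acts by binding DNA. Windows from 250 bases before to 50 bases after each annotated transcript start came from RefSeq (build GRCm38.p6), and all 7 members matched, with 9 windows in total. They were searched for exact matches to the p53 half-site consensus, a 10-base motif that reads the same on both strands, and for 2 such half-sites side by side (20 bases) with at most 1 mismatch in all. The Mdm2 window is the upstream promoter, and the p53 sites long known for Mdm2 lie in its first intron, outside the window. Capitals mark the matches.
Ccng1 (chr11:40755237-40755536, minus strand): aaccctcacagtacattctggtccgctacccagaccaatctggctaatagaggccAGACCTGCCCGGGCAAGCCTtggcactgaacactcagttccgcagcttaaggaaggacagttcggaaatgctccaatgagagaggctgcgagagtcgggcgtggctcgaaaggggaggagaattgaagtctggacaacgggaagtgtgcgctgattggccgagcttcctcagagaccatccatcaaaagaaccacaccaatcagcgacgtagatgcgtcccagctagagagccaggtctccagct
Mdm2 (chr10:117710709-117711008, minus strand): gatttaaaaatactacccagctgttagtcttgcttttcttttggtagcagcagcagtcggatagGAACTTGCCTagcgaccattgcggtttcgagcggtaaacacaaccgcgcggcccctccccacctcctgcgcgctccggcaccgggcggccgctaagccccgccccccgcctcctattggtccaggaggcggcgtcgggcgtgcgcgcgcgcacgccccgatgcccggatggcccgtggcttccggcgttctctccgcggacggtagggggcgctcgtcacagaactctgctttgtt
Cdkn1a (chr17:29090928-29090947, plus strand, the match alone, for comparison): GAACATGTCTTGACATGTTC
The Ccng1 window held the longer match, the 20 bases at chr11:40755462-40755481, which begin 195 bases before the transcript start. A match of that kind stood in 11 of 16890 windows of genes in the table (0.0651%), and Cdkn1a, which encodes the cell cycle inhibitor p21 and is a classic p53 target, held another. Of the 11 genes with such a window, 6 passed the filter on low values and 2 rose in irradiated cells, Ccng1 and Cdkn1a, where 9.24% of all genes tested rose. The other 4 did not pass and had log2 fold changes of 0.60 (Gtse1), 0.23 (Calhm2), -0.05 (Mthfd1) and -0.24 (Rps27l). An exact half-site alone was found in 5 of the 9 member windows (Trp53, Mdm2, Ccng1, Ppm1d and 1 of the 2 Rchy1 windows), against 7.35% of all windows. The Mdm4 and Usp7 windows held none. These matches are a description of letters in a window and were not tested for binding.

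**Figure D1:**
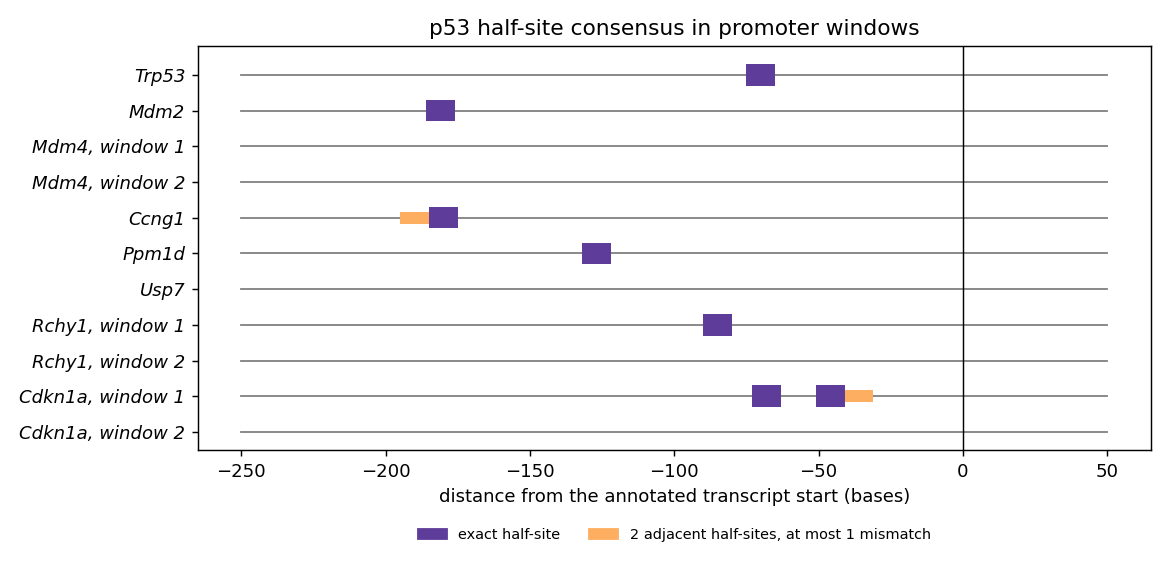
Matches to the p53 half-site consensus in the promoter windows of the 7 members and Cdkn1a, by distance in bases from the annotated transcript start (x axis, 0 is the start). Purple marks an exact half-site and orange 2 adjacent half-sites with at most 1 mismatch; Ccng1 and the first Cdkn1a window held the orange match.

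Values are FPKM, fragment counts scaled by transcript length and by library size, given to 2 decimals. Read depth is unknown, as is the precision that depth alone would give. The FPKM sums were 652691 to 663489 in irradiated libraries and 693961 to 982553 in controls. The irradiated libraries varied less than the controls, with a median SD per gene of 0.08 in irradiated and 0.30 in control libraries on the log2(FPKM + 1) scale, and control 3 lay nearer to the irradiated mean than to the mean of controls 1 and 2 for 7710 of 11103 genes (69.4%). Trp63, Krt5 and Krt14, defining genes of squamous epithelium, and Cdh1 and Epcam, of epithelium in general, were at most 0.49 FPKM in every library, apart from Trp63 in control 3 at 1.10 FPKM, while Krt8 measured 371 to 393 FPKM in irradiated and 487 to 1361 FPKM in control libraries (limma adjusted p = 0.0686), and its partner keratin Krt18 fell (105 FPKM in irradiated and 401 FPKM in control cells, log2 fold change -1.82, adjusted p = 0.0261). Among markers of other cells, Ptprc, Adgre1 and Pecam1 were at most 0.2 FPKM, and the summed level of the 8 such markers used was 104 to 119 FPKM in irradiated and 71.6 to 101 FPKM in control libraries, where Lyz2, Col1a1, Col3a1 and Pdgfra carried most of it. Of these 8, Lyz2 (3.09 FPKM in irradiated and 0.533 FPKM in control cells, log2 fold change 1.41, limma adjusted p = 0.00745) and Col1a1 (45.9 FPKM in irradiated and 18.9 FPKM in control cells, 1.23, 0.00474) rose and none fell, and Col3a1 had -0.37 (0.122). Lyz2 reached 1 FPKM only in irradiated libraries, so it was tested only because it was high there. The part of these markers in the results was not tested.

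Across the 7 genes, Mdm2 and Ccng1 rose in irradiated cells and the other 5 did not pass the test. A gene passed when limma, fitted to all 11103 genes with at least 1 FPKM in 3 samples, gave a Benjamini-Hochberg adjusted p below 0.05. All 7 members passed the filter on low values. The 2 members called higher compare with 9.24% of all genes tested (1026), none of the 7 fell, against 2.77% of all genes, and 12.0% of all genes were called in either direction. Of the genes called, 76.9% were higher, a share of 51.8% after quantile normalization and 58.6% after trimmed-mean scaling. At an unadjusted p below 0.05, 3 members passed (Mdm2, Ccng1 and Ppm1d), against 38.3% of all genes. Over the 16 alternative settings the share of all genes called ran from 0.516% to 74.2%. In 1 of those settings control 3 is the only control, so the spread comes from the irradiated libraries alone and the lone control is assumed to vary as little as they do. Its p-values hold no variation among controls. All 3 irradiated libraries lay above all 3 controls for 4 members (Trp53, Mdm2, Ccng1 and Ppm1d), against 31.8% of all genes tested. The median log2 fold change of the members was 0.48 and that of all genes 0.17. Each fold change is the irradiated mean less the control mean of log2(FPKM + 1), so changes of low genes are understated. In bulk RNA, a change in the number of cells that express a gene and a change in RNA per cell cannot be told apart.

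**Figure D2:**
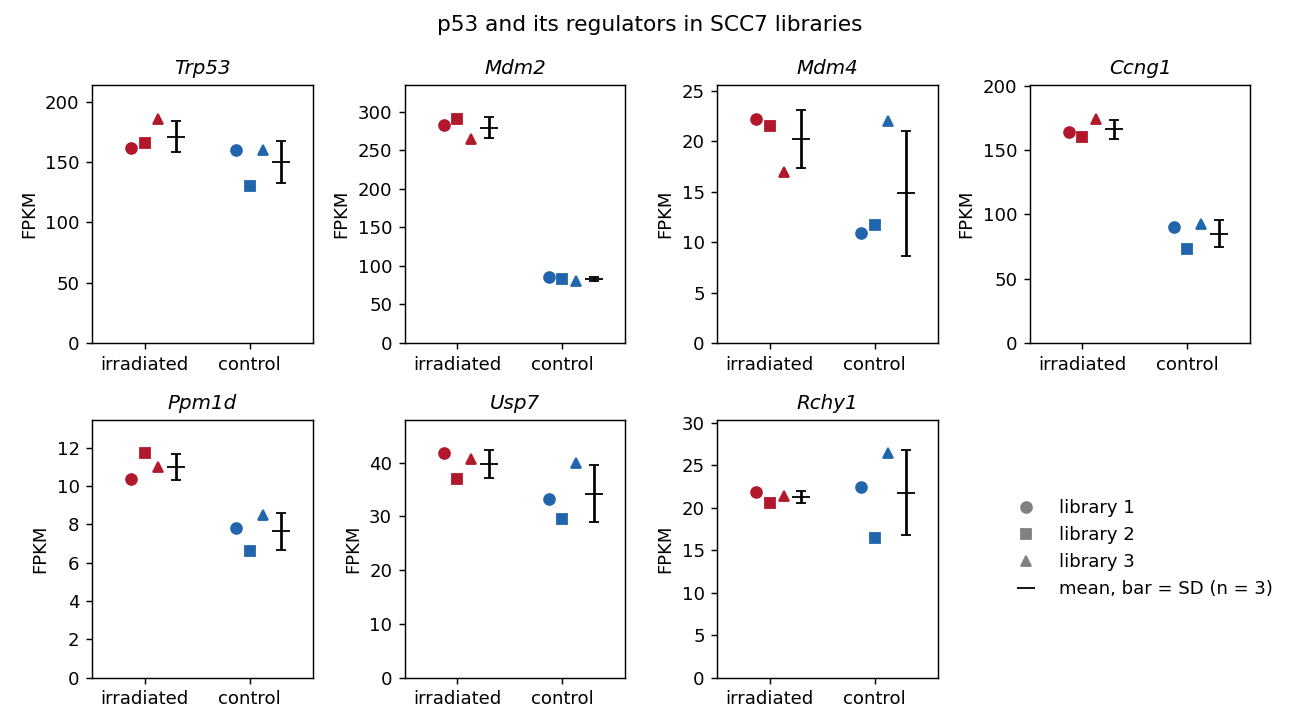
FPKM of each member (y axis) in the irradiated (left, red) and control (right, blue) libraries, with symbols for libraries 1 to 3 and the mean with its SD (n = 3) beside them. Mdm2 stood at 265 to 291 FPKM in irradiated libraries and 80.4 to 85.7 FPKM in controls, whereas the Mdm4, Usp7 and Rchy1 points overlapped between groups.

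Mdm2 (NCBI gene 17246, chromosome 10, 117688875 to 117710758, GRCm38.p6) measured 282.18, 290.96 and 264.62 FPKM in irradiated libraries 1 to 3, against 85.69, 82.38 and 80.36 FPKM in controls 1 to 3. The groups were far apart, and the controls agreed closely for this gene. Its means were 279 ± 13.4 and 82.8 ± 2.69 FPKM in irradiated and control cells (SD, n = 3 each), a ratio of 3.37. The log2 fold change was 1.74 (SE 0.12, 95% interval 1.46 to 2.03, limma adjusted p = 0.000838). Mdm2 ranked 27 by p and 157 by size of rise among 11103 genes. Only 2.38% of genes had a smaller SD among the controls. Set against control 1, 2 or 3 alone, the irradiated mean was higher by 1.69, 1.75 and 1.78 on the log2 scale, so the size of the rise did not hinge on which control it was read against. It was called in all 16 alternative settings run, with fold changes between 1.54 and 1.97 and adjusted p between 7.82e-09 and 0.0278.

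Ccng1 encodes cyclin G1, which recruits the phosphatase PP2A to MDM2 and activates it (NCBI gene 12450, chromosome 11, 40748552 to 40755309). It measured 164.12, 160.36 and 174.53 FPKM in irradiated libraries and 89.94, 72.77 and 92.19 FPKM in controls. Every irradiated library lay well above every control. The mean was 166 ± 7.34 FPKM in irradiated and 85.0 ± 10.6 FPKM in control cells (SD, n = 3 each), a ratio of 1.96 and a log2 fold change of 0.97 (SE 0.14, 95% interval 0.63 to 1.30, limma adjusted p = 0.0114). The call was lost without control 1 (adjusted p = 0.0610) and without irradiated library 1, 2 or 3 (0.119, 0.119 and 0.113), within a range of 1.01e-06 to 0.119 over all alternatives. Without these libraries in turn, 1.48%, 0.424%, 0.507% and 0.782% of all genes were called higher, against 9.24% in full. The Ccng1 fold change itself stayed between 0.77 and 1.16 in all 16.

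Ppm1d encodes the phosphatase WIP1, which removes activating phosphates from p53, ATM and CHK2 (NCBI gene 53892, chromosome 11, 85311254 to 85347071). It had the lowest mean FPKM of the members, with 10.34, 11.70 and 10.99 FPKM in irradiated libraries and 7.83, 6.60 and 8.46 FPKM in controls. The groups did not overlap, but the gap between them was small. The log2 fold change of 0.48 (SE 0.14, 95% interval 0.15 to 0.81) missed the threshold over all genes (limma adjusted p = 0.0634). It was called higher in 4 of 16 alternatives, namely without control 3 (0.55, adjusted p = 0.00287), with array weights (0.45, 0.000515), with control 3 as the only control (0.34, 0.0323) and after correction for transcript length and GC content (0.50, 0.0407), where 45.8%, 47.9%, 22.8% and 12.0% of all genes were called higher. The call with a lone control carries the limit given above. The adjusted p reached 0.343 after quantile normalization.

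Trp53 itself (NCBI gene 22059, chromosome 11, 69580348 to 69591873) measured 161.83, 165.64 and 186.16 FPKM in irradiated libraries and 160.19, 130.34 and 159.97 FPKM in controls. The lowest irradiated value exceeded the highest control by under 2 FPKM, so the groups touched without overlapping. The means were 171 ± 13.1 and 150 ± 17.2 FPKM in irradiated and control cells (SD, n = 3 each), and the log2 fold change of 0.19 did not pass (SE 0.15, 95% interval -0.15 to 0.54, limma adjusted p = 0.344). The interval leaves room for a rise to 0.54 on the log2 scale. Quantile normalization gave 0.42 and trimmed-mean scaling -0.01, and it was called in 0 of 16 alternatives (adjusted p 0.109 to 0.965).

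Mdm4 (NCBI gene 17248, chromosome 1, 132986105 to 133030587) measured 22.26, 21.52 and 16.92 FPKM in irradiated libraries and 10.92, 11.66 and 22.01 FPKM in controls. Controls 1 and 2 were well below all irradiated libraries, and control 3 lay within the irradiated range. The log2 fold change was 0.48 (SE 0.27, 95% interval -0.17 to 1.13, limma adjusted p = 0.227). Against control 1, 2 or 3 alone it was 0.82, 0.74 and -0.13, and without control 3 it was called higher (0.78, adjusted p = 0.00112, in a range of 3.91e-05 to 0.535). In that setting 45.8% of all genes were called higher. Leaving out any 1 library kept the Mdm4 difference positive, at 0.31 to 0.78.

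Usp7 (NCBI gene 252870, chromosome 16, 8688722 to 8757067) measured 41.71, 36.87 and 40.67 FPKM in irradiated libraries and 33.23, 29.49 and 39.91 FPKM in controls. Control 3 again lay within the irradiated range. The log2 fold change of 0.22 did not pass (SE 0.15, 95% interval -0.13 to 0.57, limma adjusted p = 0.291). Without control 3 it was 0.33 (adjusted p = 0.0218), where 45.8% of all genes were called higher. Over the alternatives with more than 1 control, the adjusted p for Usp7 ran from 0.0126 to 0.899. With control 3 as the only control the Usp7 difference was -0.0076. Rchy1 (NCBI gene 68098, chromosome 5, 91948842 to 91963145) measured 21.87, 20.53 and 21.45 FPKM in irradiated libraries and 22.51, 16.47 and 26.42 FPKM in controls. The irradiated values all fell inside the spread of the controls. Its log2 fold change was -0.01 (SE 0.18, 95% interval -0.45 to 0.43, limma adjusted p = 0.973). The annotated exons of Rchy1 share 680 bases (18.0%) with the pseudogene Thap6 on the opposite strand, and whether counting used strand is not given in the sources used here. With control 3 as the only control its difference was -0.30 and was called lower (adjusted p = 0.0294, in a range of 0.0294 to 0.981), as were 14.4% of all genes, with no spread among controls behind that p.

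**Figure D3:**
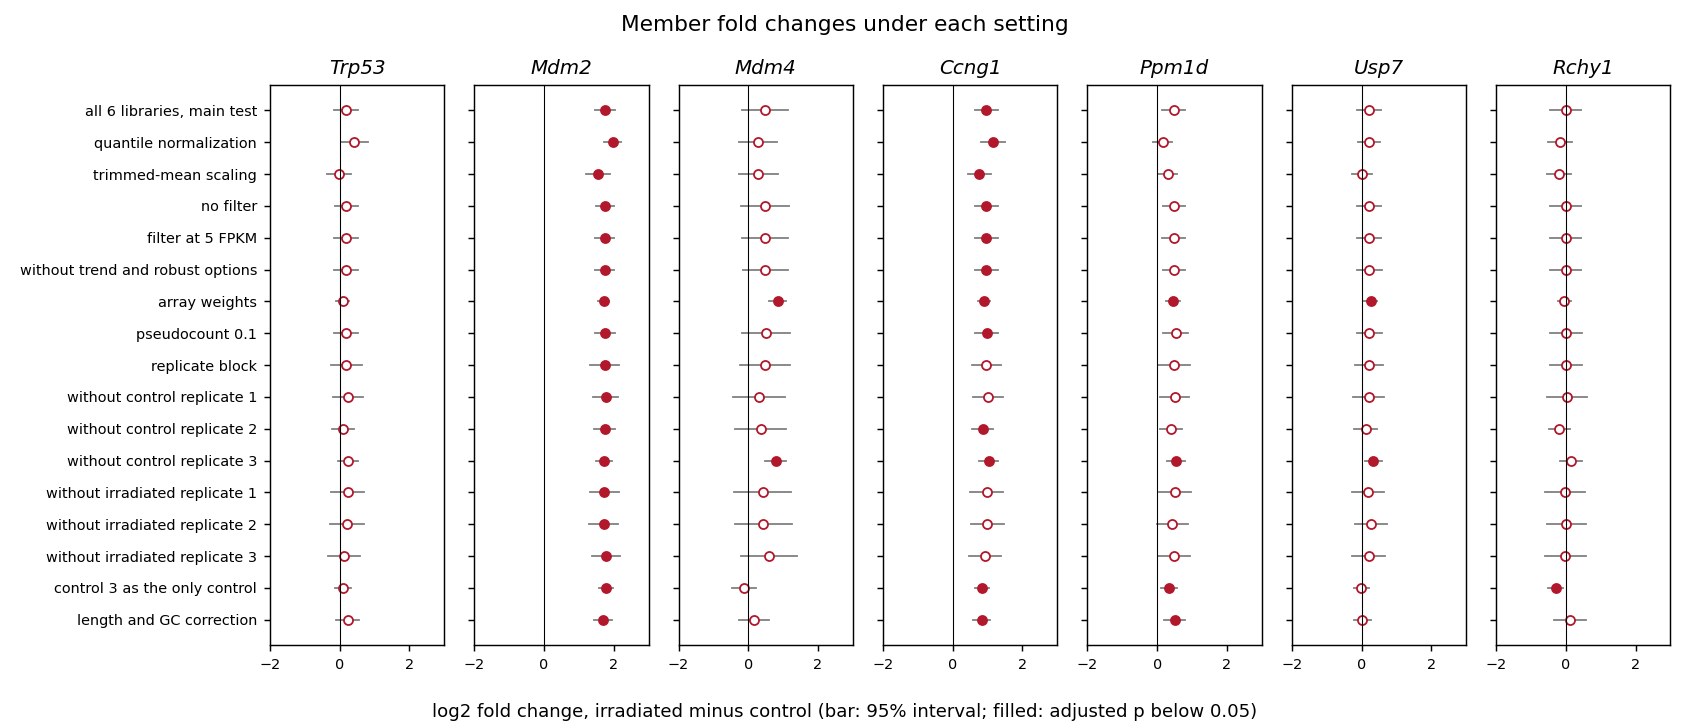
Log2 fold change of each member, irradiated minus control (x axis), under the main test and the 16 alternatives (rows), with 95% intervals as bars and filled points where the adjusted p was below 0.05. Mdm2 is filled in every row and Ccng1 in the top row and 11 alternatives, while Trp53 is filled in none.

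FPKM is scaled by the transcript length assigned to each gene, so an order of genes holds only as far as those lengths do. The lengths used are not given. For Mdm2 the longest annotated transcript has 3145 bases and all exons together 5083. For Trp53 these are 3275 and 4045 bases, and for Mdm4 7105 and 14798. In irradiated cells the order of mean levels was Mdm2 (279 FPKM), Trp53 (171), Ccng1 (166), Usp7 (39.8), Rchy1 (21.3), Mdm4 (20.2) and Ppm1d (11.01). The Trp53 and Ccng1 values overlapped, as did those of Rchy1 and Mdm4, so neither pair can be ordered. In control cells the order was Trp53 (150 FPKM), Ccng1 (85.0), Mdm2 (82.8), Usp7 (34.2), Rchy1 (21.8), Mdm4 (14.9) and Ppm1d (7.63), with overlap between Ccng1 and Mdm2 and between Rchy1 and Mdm4. By FPKM, Mdm2 thus stood above Trp53 in every irradiated library and below it in every control.

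A ratio within a library is not changed by a single scaling factor for that library, and such ratios separated the groups for Mdm2. The ratio of Mdm2 to Trp53 FPKM was 1.74, 1.76 and 1.42 in irradiated libraries and 0.535, 0.632 and 0.502 in controls. The Mdm2 to Trp53 ratio was 2.95-fold higher in irradiated cells (log2 difference 1.56, exact two-sided permutation p = 0.1, higher in 3 of 3 libraries). The ratio of Mdm2 to Mdm4 was 12.7, 13.5 and 15.6 in irradiated libraries and 7.85, 7.07 and 3.65 in controls. Control 3 had the lowest of these, and every irradiated library still exceeded every control (log2 difference 1.24, exact two-sided permutation p = 0.1). With 3 samples against 3, 0.1 is the smallest p this test can give, so neither ratio could reach 0.05. Without control 3, the Mdm2 to Mdm4 difference was 0.90, and without control 1 it was 1.45. Quantile normalization, which moves genes of different levels by different amounts, gave 1.69, and control 3 as the only control gave 1.93. For Ccng1 to Trp53 the ratio was 1.01, 0.968 and 0.938 in irradiated libraries and 0.561, 0.558 and 0.576 in controls, and this pair was examined after its values were seen, without a test. The 3 controls differed by little in that ratio, although the level of each gene varied among them. The ratio of Mdm2 to Ccng1 was 1.72, 1.81 and 1.52 in irradiated libraries, against 0.953, 1.13 and 0.872 in controls. Mdm4 to Trp53 overlapped between groups, at 0.138, 0.130 and 0.0909 in irradiated libraries and 0.0682, 0.0895 and 0.138 in controls. Ppm1d to Trp53 was 0.0639, 0.0706 and 0.0590 in irradiated libraries and 0.0489, 0.0506 and 0.0529 in controls. These ratios were not tested, and the share of all gene pairs that separate the groups was not computed.

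**Figure D4:**
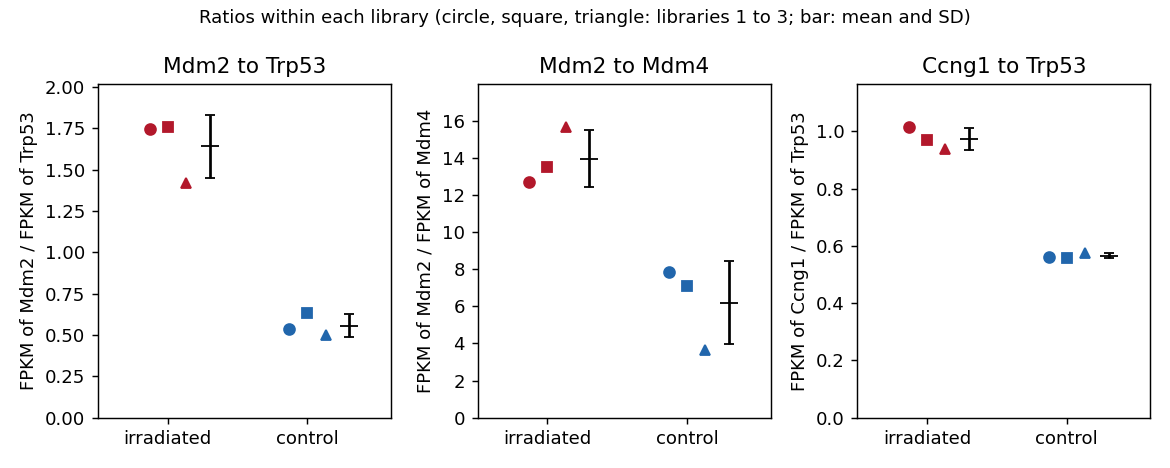
Ratio of FPKM within each library (y axis) for Mdm2 to Trp53, Mdm2 to Mdm4 and Ccng1 to Trp53 in irradiated (left, red) and control (right, blue) libraries, with symbols for libraries 1 to 3 and the mean and SD (n = 3). In each panel the 3 irradiated points lie above the 3 control points, whereas Mdm4 to Trp53, which is not shown, overlapped between groups.

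Other regulators of p53 were taken from a list of 49 symbols, of which 47 matched the table and 45 passed the filter. Of these, 7 rose and 0 fell by limma (17 and 4 at an unadjusted p below 0.05), with a median log2 fold change of 0.18, close to the 0.17 of all genes tested. Among all genes tested 9.24% rose and 2.77% fell, or 27.2% and 11.1% at an unadjusted p below 0.05. Among ubiquitin ligases, Huwe1, a large ligase with p53 among its substrates, averaged 30.05 ± 1.55 FPKM in irradiated and 18.0 ± 2.84 FPKM in control cells (SD, n = 3 each, log2 fold change 0.72, limma adjusted p = 0.0313). Topors, a ligase for both ubiquitin and SUMO, rose by 0.73 (adjusted p = 0.0231). Of the kinases, Atm, which signals double-strand breaks to p53, averaged 6.05 ± 0.359 FPKM in irradiated and 3.30 ± 0.9752 FPKM in control cells (log2 fold change 0.74, limma adjusted p = 0.0489), and Dyrk2 rose by 1.03 (adjusted p = 0.0394). Chek2, the kinase CHK2, measured 9.11, 9.49 and 8.82 FPKM in irradiated libraries and 9.01, 5.91 and 9.01 FPKM in controls and did not pass (adjusted p = 0.430). Setd7, a lysine methyltransferase that acts on p53, rose by 0.95 (adjusted p = 0.0473). Among binding partners, Ppp1r13l, which encodes the p53 inhibitor iASPP, rose by 0.64 (adjusted p = 0.0385) and Daxx, which links MDM2 and USP7, by 0.82 (adjusted p = 0.0270).

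The ribosomal proteins Rpl5, Rpl11 and Rpl23, which bind and inhibit MDM2 when ribosome assembly fails, were lower in every irradiated library than in every control, but none passed. All 3 irradiated libraries lay below all 3 controls for 13.7% of all genes tested, and the groups overlapped for the other tested inhibitors of MDM2, Npm1 (0.12) and Gnl3 (-0.18). Rpl11 averaged 781 ± 30.6 FPKM in irradiated and 1298 ± 252 FPKM in control cells (SD, n = 3 each, log2 fold change -0.71, limma adjusted p = 0.0533), and Rpl5 and Rpl23 had -0.72 and -0.75 (adjusted p = 0.05001 and 0.0613). Reads of such genes can be shared with near-identical copies in the genome. The p53 relatives Trp63 and Trp73 did not pass the filter, and Cdkn2a was not analysed here. Nor was the gene meant by the listed symbol Synv1, which as spelled matched no symbol in the table. The 7 calls depended on the settings and on the libraries. Atm was called in 4 of 16 alternatives and its log2 fold change was 0.34 both after quantile normalization and after the length and GC correction. Huwe1 was called in 8 of 16 and had 0.31 after that correction. The other 5 were called in 6 (Setd7) to 11 (Topors) of 16. None of the 7 remained without control 1 or without irradiated library 1, 2 or 3 (0 called by limma). There 11, 11, 12 and 13 regulators were higher at an unadjusted p below 0.05. Of all genes, 1.48%, 0.424%, 0.507% and 0.782% were called higher in those settings. At an unadjusted p below 0.05, 2587, 2281, 2326 and 2518 of all genes passed there, in either direction. Topors alone remained without control 2, where 4.01% of all genes were called higher. Without control 3, 24 regulators were called higher and 11 lower, where 45.8% and 23.3% of all genes were. Trimmed-mean scaling left 3 called and turned the list median to -0.02.

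Genes that p53 induces were counted in a list of 35 without the members, all in the table, of which 33 passed the filter. Here 9 rose and 0 fell by limma (19 and 0 at an unadjusted p below 0.05), where 9.24% of all genes rose and 2.77% fell (27.2% and 11.1% unadjusted), with a median log2 fold change of 0.63 against 0.17 for all genes. Trp53inp1, a stress protein that promotes p53 phosphorylation, had the largest log2(FPKM + 1) difference of the list, at 30.95, 32.30 and 28.20 FPKM in irradiated libraries and 4.76, 3.88 and 14.65 FPKM in controls. Control 3 was well above the other controls and well below every irradiated library. Its log2 fold change was 2.05 (SE 0.42, limma adjusted p = 0.0325). By the ratio of means Fas (10.1) and Btg2 (4.92) exceeded Trp53inp1 (3.93). With control 3 as the only control the Trp53inp1 difference was 1.01. Fas measured 2.76 to 3.04 FPKM in irradiated and 0.05 to 0.41 FPKM in control libraries. Btg2 measured 4.61 to 4.93 FPKM in irradiated and 0.75 to 1.25 FPKM in control libraries. Both ratios thus divide by control means below 1 FPKM. Both genes passed the filter only through the irradiated libraries, so a high irradiated level was a condition of their being tested. Eda2r, a receptor of the TNF receptor family, rose by 1.05 (adjusted p = 0.0371), Polk, a translesion DNA polymerase, by 1.14 (0.0409), and Ddb2, which recognises damaged DNA, by 0.83 (0.0416). Ephx1, an epoxide hydrolase, rose by 0.57 (adjusted p = 0.0371) and Rap2b, a small GTPase, by 0.64 (0.0308). Btg2, an antiproliferative factor, and Fas, a death receptor, rose by more than these 5 (1.55 and 1.61, adjusted p = 0.0025 and 0.0029), and Cdkn1a rose by 0.90 (adjusted p = 0.0145). Every irradiated library exceeded every control for 20 of the 33, against 31.8% of all genes tested. For Fdxr every irradiated library was lower. Gadd45a measured 21.9 to 29.59 FPKM in irradiated libraries and 9.02, 6.11 and 118.3 FPKM in controls. Control 3 also exceeded every irradiated library for Gdf15 (13.36 FPKM, at most 9.07 in irradiated), Sesn2 (23.5, 20.68), Sesn1 (9.89, 7.29) and Cd82 (73.51, 65.07). None of these genes passed.

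Of the 14 p53-induced genes with a role in cell death, 12 were tested, 3 rose (Fas, Eda2r and Trp53inp1) and 0 fell. Among all genes tested 9.24% rose and 2.77% fell. Fas was tested only because it was high in the irradiated libraries. All 3 irradiated libraries lay above all 3 controls for 7 of the 12, against 31.8% of all genes tested. Apaf1, the core of the apoptosome, was among the 7 and did not pass (log2 fold change 1.12, limma adjusted p = 0.0621). Bax, which permeabilises mitochondria, measured 242.32, 240.56 and 239.52 FPKM in irradiated libraries and 337.58, 402.85 and 226.42 FPKM in controls (log2 fold change -0.38, limma adjusted p = 0.238). Bbc3, which encodes PUMA, measured 6.73, 9.13 and 6.65 FPKM in irradiated libraries and 4.17, 3.81 and 9.00 FPKM in controls (0.42, adjusted p = 0.319). Pmaip1 (NOXA) and Perp were at most 0.04 FPKM in every library and were not tested. Without control 1, Btg2 and Fas alone of the whole list kept their calls (15 genes higher at an unadjusted p below 0.05). Without control 2 these and Cdkn1a did, and without irradiated library 1, 2 or 3 only Btg2, with Fas then below the filter. Of all genes, 1.48% were called higher without control 1, 4.01% without control 2 and 0.424% to 0.782% without 1 irradiated library. Without control 3, 24 p53-induced genes were called higher and 4 lower, where 45.8% and 23.3% of all genes were.

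**Figure D5:**
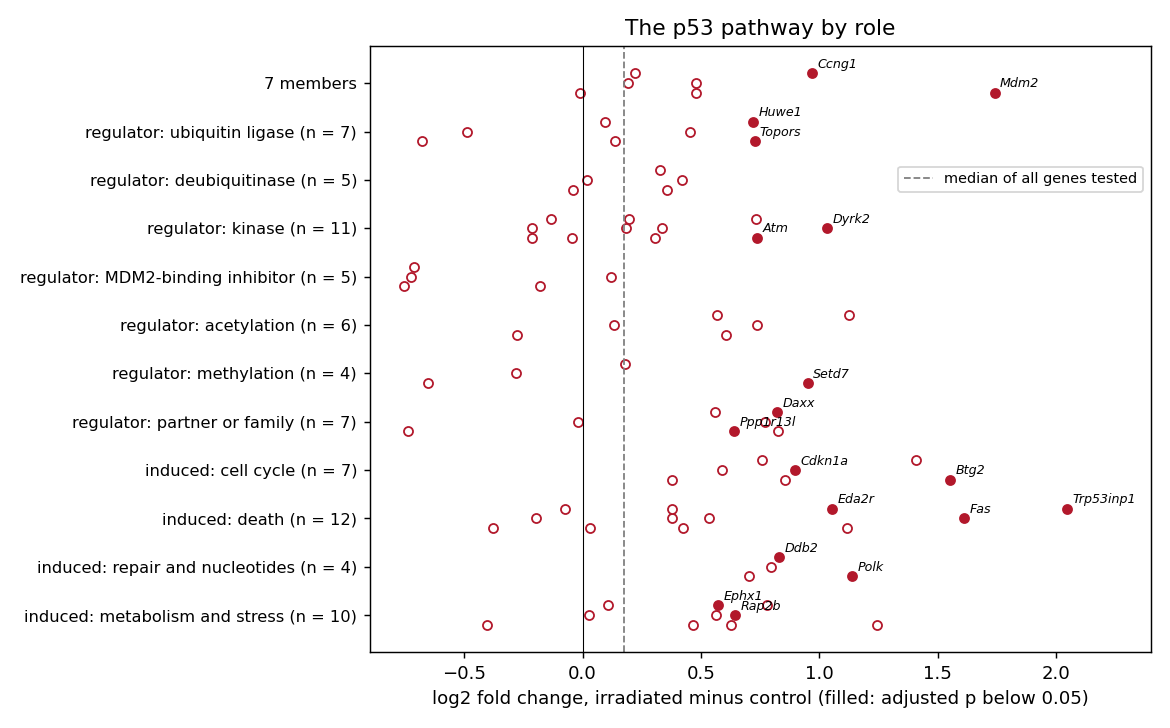
Log2 fold change, irradiated minus control (x axis), of the 7 members, 45 other p53 regulators and 33 p53-induced genes that passed the filter, by role (rows), with filled and named points where the adjusted p was below 0.05. The dashed line is the median of all genes tested (0.17), and no filled point lies left of 0.

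The genes whose pattern over the 6 libraries was most like that of Mdm2, by Pearson's r of log2(FPKM + 1) among 8483 genes with a mean of at least 5 FPKM, were Gbp3, Ccl7, Lcn2, Sprr1a and Oas2 (r between 0.998 and 0.999). All 5 have a wide step between the groups and controls close together, and r here mostly reflects that step. Gbp3, Lcn2 and Oas2 were at most 0.8 FPKM in every control. They were searched only because they were high in irradiated libraries, so a step was a condition of their being included. Ccl7, a chemokine, came nearest in level, at 270.51, 289.41 and 258.53 FPKM in irradiated libraries and 106.42, 97.79 and 96.76 FPKM in controls. For Trp53 the nearest were Ncoa5, Eif3l, Hnrnph2, Akt1 and Ncbp2 (r between 0.986 and 0.994), none of which passed the test. Akt1, a kinase that activates MDM2, measured 111.38, 111.85 and 132.64 FPKM in irradiated libraries and 106.72, 74.08 and 109.86 FPKM in controls, with the highest value in irradiated library 3 and the lowest in control 2, as for Trp53. These correlations rest on 6 points that share libraries and scaling and are given as a description.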

How the data were processed

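Per the labels, RNA of 3 irradiated (9 Gy) and 3 untreated SCC7 samples was treated with DNase I, depleted of ribosomal RNA and sequenced. The deposited values are FPKM, per the file headers, and the submitters' processing notes name HISAT and build GRCm38.p6. The counting tool, annotation and filters are not stated in any source used here. FPKM moves with the transcript length the authors assigned and with the library total.

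The test was run on 11103 of 17030 genes, those reaching 1 FPKM in 3 or more samples, after a log2(FPKM + 1) transform, using limma (version 3.58.1, under R 4.3.3; 2 groups, trend and robust options, Benjamini-Hochberg adjustment, threshold 0.05). Ratios within libraries were tested by exact permutation over the 6 samples. The members, lists, tests and settings were chosen with earlier results of these data known. Named genes are the 7 members, every called member of the lists, Cdkn1a, Atm, Chek2, Cdkn2a, Bax, Bbc3 and Pmaip1 whatever their values, and the 5 genes most correlated with Mdm2 and with Trp53. Other genes were named after their values were seen. A further listed cell type marker is not reported here and was left out of the summed marker level.

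Alternatives changed the scaling (quantile normalization, or trimmed-mean scaling), the filter (none, or 5 FPKM), the pseudocount (0.1) or the limma settings (trend and robust options off, array weights on, sample number as block), or dropped 1 sample at a time. Added after seeing the data were control 3 as the only control and a spline correction for length and GC content. Transcript length was known for 16424 genes (96.4%) from GENCODE M21. On simulated data for the irradiated against control comparison, run on 10944 genes, 50% of genes changed 2-fold and 79% of those changed 4-fold were recovered, with 7 unchanged genes called. The changes were added on the log2(FPKM + 1) scale, and each gene was drawn independently with the same SD in both groups. The real controls varied more than the irradiated libraries, and control 3 often lay nearer the irradiated mean. The simulated rates therefore need not hold for these data. Coordinates are 1-based positions from RefSeq, GRCm38.p6.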

Additional observations from a re-analysis of the deposited data

How the results depend on the processing

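Mdm2 kept its call in all 16 alternatives, and no alternative called Trp53. The counts depended on the libraries. All genes called numbered 1334 in full, 56 to 7638 when 1 library was left out (higher 46 to 5067, lower 10 to 2571), 727 with the filter at 5 FPKM (506 higher), 8242 with array weights (5320 higher, 2922 lower), and 4093 with control 3 as the only control (2514 higher, 1579 lower), a setting whose spread comes from the irradiated libraries alone and whose calls hold no variation among controls. Quantile normalization gave 645 higher and 601 lower (51.8% higher, against 76.9%) and trimmed-mean scaling 675 and 476 (58.6%), and the median over all genes tested was then -0.02 and -0.01 on the log2 scale, against 0.17. Array weights gave control 1 a weight of 3.34 and control 3 one of 0.08, so those calls rest mostly on 1 control. Samples of the same number did not deviate together (correlation of deviations -0.11, 0.02 and -0.16), so the numbers were not taken as pairs. With the replicate block, 300 genes were called (260 higher, 40 lower), among members Mdm2 alone (1), since Ccng1 kept its log2 fold change of 0.97 at an adjusted p of 0.0528, with 0 other regulators (limma, 14 higher at an unadjusted p below 0.05) and 2 p53-induced genes, and the ratios kept their values.

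Members called higher were 2 in full, 1 to 5 when 1 library was left out and 5 with array weights, and 1 was called lower with control 3 as the only control (Rchy1, -0.30). When 1 library was left out, log2 fold changes ranged from 0.86 to 1.03 for Ccng1, 0.31 to 0.78 for Mdm4, 0.39 to 0.55 for Ppm1d, 0.12 to 0.33 for Usp7, -0.19 to 0.14 for Rchy1 and 0.09 to 0.24 for Trp53. With array weights Mdm4, Ppm1d and Usp7 were called higher (0.84, 0.45 and 0.26). With control 3 as the only control Ppm1d was called (0.34), and Mdm4 and Usp7 turned to -0.13 and -0.0076. Correction for length and GC content called Ppm1d (0.50) and turned Rchy1 to 0.13, and trimmed-mean scaling turned Trp53 to -0.0094. The cause was not tested. Differences of the within-library ratios ranged from 0.90 to 1.45 (Mdm2 to Mdm4) and 1.49 to 1.66 (Mdm2 to Trp53) when 1 library was left out, and the first was 1.69 after quantile normalization and 1.93 with control 3 as the only control.

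Of all genes tested, 9.24% were called higher in full, 0.424% to 45.8% when 1 library was left out and 47.9% with array weights. The share was 6.08% after trimmed-mean scaling and 6.49% without a filter. The shares called lower were 2.77% in full, 0.0921% to 23.3% when 1 library was left out and 26.3% with array weights. Other regulators called higher were 7 in full, 0 to 24 when 1 library was left out, 3 after trimmed-mean scaling, 4 without a filter and 24 with array weights. Those called lower were 0 in full, 0 to 11 when 1 library was left out, 2 without trend and robust options, 13 with array weights, 6 with control 3 alone and 2 after the length and GC correction, and the list median turned to -0.015 after trimmed-mean scaling. P53-induced genes called higher were 9 in full, 1 to 24 when 1 library was left out, 5 after trimmed-mean scaling, 26 with array weights and 20 with control 3 alone, and those called lower 0 to 4, 4 with array weights and 2 with control 3 alone. FPKM gives no depth, so no counting limit can be stated.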
